A study of Mus musculus with 6 samples.

Results

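Nrarp, Hes1, Hey1, Notch1, Notch2, Notch3, Notch4, Dll1, Jag1 and Rbpj are 10 of the 39017 genes counted in poly(A) RNA-seq of mouse embryonic stem cells (mESCs) before and after depletion of RNA polymerase II (Pol II). They were picked by gene symbol, with earlier results of the same libraries known, above all the difference of Nrarp after Pol II depletion. Their own differences are therefore given as descriptions, with the value in every library and no p-value. All 10 had enough counts to enter the tests of both comparisons.

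The 6 libraries fall into 3 groups of 2, written here as untreated, auxin and wild type. Untreated and auxin cells came from the same Pol II degron line, a clonal line of V6.5 mESCs in which both copies of the gene for RPB1, the largest Pol II subunit, carry an mAID-GFP tag at the C terminus. Both groups carried OsTIR1 at the Rosa26 locus, a plant F-box protein that with auxin sends mAID-tagged proteins to the proteasome, and its expression was switched on beforehand by 12 h in doxycycline at 1 μg/ml. The auxin group then received 500 μM indole-3-acetic acid (auxin) for 6 h. Wild type is the V6.5 parent line, a C57BL/6 × 129/sv hybrid, with no tag and no OsTIR1, and doxycycline is not stated for it. All cells grew with leukaemia inhibitory factor and serum on irradiated mouse embryonic fibroblasts, a feeder layer that was passaged away before harvest. Auxin against untreated asks what changed in mRNA after 6 h of auxin, which degrades the tagged Pol II protein. The paper allows that depletion may be incomplete at specific genes. Wild type against untreated asks how far the tagged line differed from its parent. Because the line is a single clone, its tag, its OsTIR1 and its clonal history cannot be told apart in the second comparison. The doxycycline given to untreated cells cannot be told apart from them either. The wild-type counts were deposited separately, so any difference in when or how those libraries were made also remains mixed in.

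Notch signalling passes between touching cells. DLL and JAG proteins on the sending cell bind NOTCH receptors on the receiving cell, an ADAM protease and then gamma-secretase cut the receptor, and the freed intracellular domain enters the nucleus. There it joins the DNA-binding protein RBPJ and Mastermind coactivators and switches on target genes, among them the HES and HEY repressors and Nrarp, a small ankyrin repeat protein that binds the complex and limits it. In the absence of a signal RBPJ sits with corepressors. The pathway is best known in mESC culture for its part in leaving the pluripotent state, most of all towards neural fates.

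Nrarp and Notch4 had the largest differences of the 10 after auxin, so the 250 bases upstream of their RefSeq starts (GRCm38.p6, the mm10 assembly) are printed, 5′ to 3′ on the gene's own strand. Capitals mark the palindromic E-box CACGTG, a letter pattern read by many basic helix-loop-helix proteins, HEY proteins among them. The Nrarp window is chr2:25180508-25180757 and the Notch4 window chr17:34564045-34564294, both on the plus strand, and the last bases of the Notch4 window lie inside the GENCODE gene.
Nrarp: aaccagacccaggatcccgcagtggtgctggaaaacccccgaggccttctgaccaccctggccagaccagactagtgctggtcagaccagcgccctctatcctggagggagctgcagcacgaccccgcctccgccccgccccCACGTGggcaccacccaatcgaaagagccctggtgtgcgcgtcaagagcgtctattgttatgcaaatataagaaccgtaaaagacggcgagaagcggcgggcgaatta
Notch4: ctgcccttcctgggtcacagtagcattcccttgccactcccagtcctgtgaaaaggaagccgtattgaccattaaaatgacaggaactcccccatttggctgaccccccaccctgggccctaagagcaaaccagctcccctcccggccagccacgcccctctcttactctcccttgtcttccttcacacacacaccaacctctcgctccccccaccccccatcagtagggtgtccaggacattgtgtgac

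RefSeq windows were found for 8 of the 10 genes, 10 windows in all because Dll1 and Rbpj have 2 each, and none was found for Hes1 and Hey1. The E-box stood in 1 of these 10 windows, that of Nrarp, 108 to 103 bases before its start, and in 6.02% of 32851 mouse promoter windows of the same length. The letters GTGGGAA, a common form of the RBPJ binding sequence, were searched on both strands and stood in 0 of the 10 windows and in 5.42% of all windows. Its core TGGGAA, which the longer form contains, stood in both Rbpj windows, which overlap each other, and in 21.6% of all windows. The upstream window of Nrarp held 61.2% G and C, more than 74.8% of all windows, whose median was 52.4%. A match is a string of letters and not a mapped binding site, and a window without a match says nothing about sites elsewhere.

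After 6 h of auxin, Nrarp mRNA stood at 3.15 times its untreated level, Notch4 at 1.43 times, and the other 8 genes lay between 0.75 and 1.41 times. Levels are counts scaled to a common library size (CPM) after TMM scaling over the 6 libraries, and fold changes are edgeR fits on the 4 libraries of each comparison, given on the log2 scale with their standard error (SE). By the rule of an adjusted p under 0.05, 2 of the 10 were called, Nrarp and Notch4, against 4.20% of the 16128 genes tested (2.56% higher and 1.64% lower), and since this contrast was among the values that chose the genes, nothing is read from that count. The groups did not overlap for 5 of the 10, with Nrarp, Notch3 and Notch4 higher and Notch1 and Rbpj lower after auxin, against 50.8% of all genes tested (22.3% higher and 28.4% lower). The median log2 fold change was 0.07 over the 10 genes and 0.00 over all genes.

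**Figure D1:**
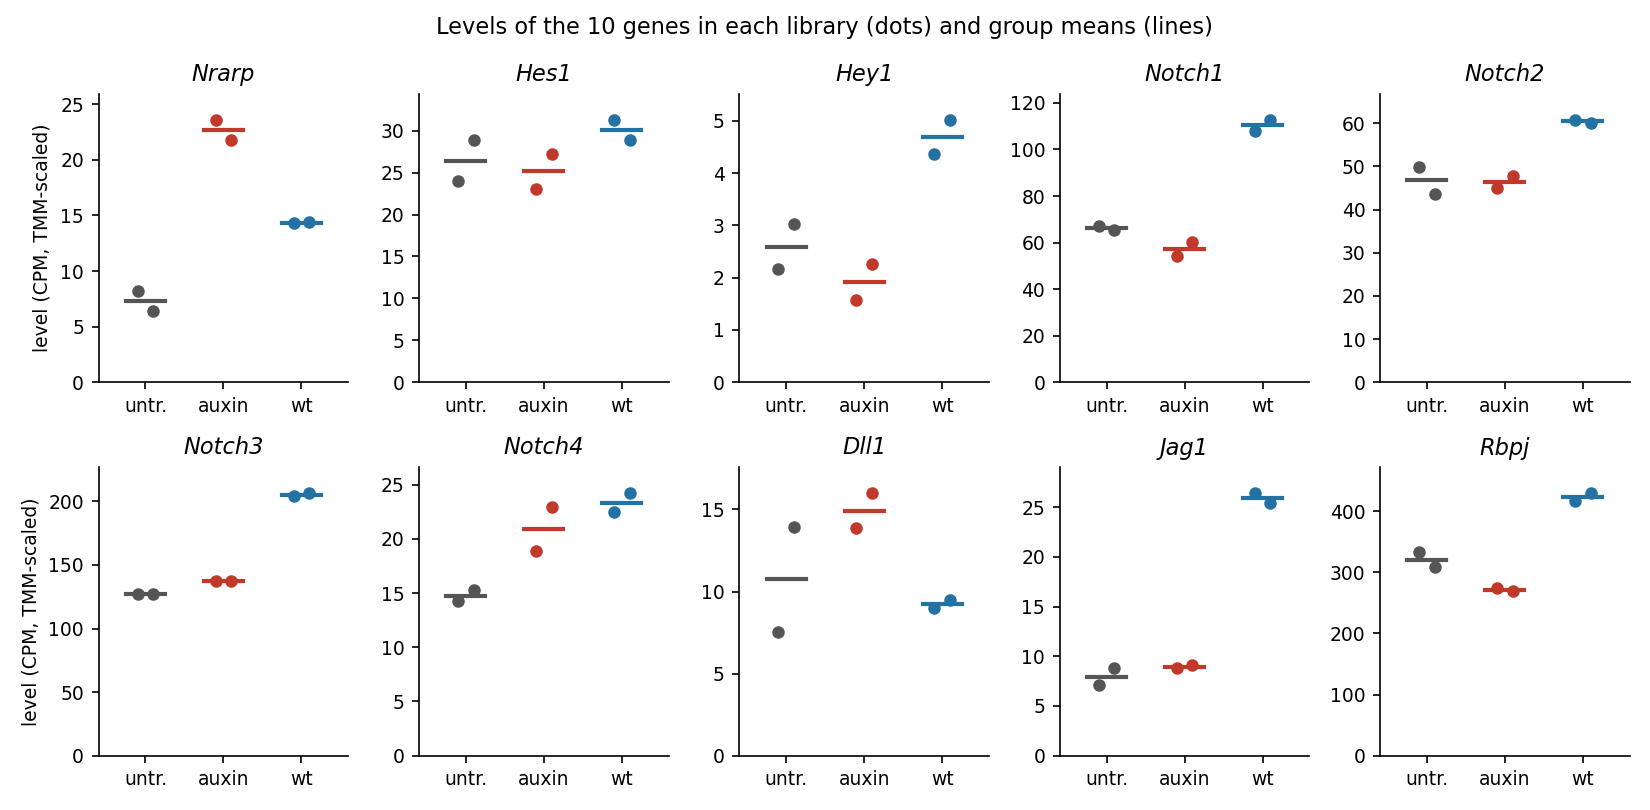
Level of each of the 10 genes in every library, in TMM-scaled CPM on a linear axis from 0, with untreated (untr.), auxin and wild-type (wt) libraries as dots and group means as lines (n = 2 each). Nrarp lies at 6.39 and 8.22 in untreated, 21.8 and 23.6 in auxin and 14.3 and 14.4 in wild-type libraries, with no overlap between any groups.

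Nrarp (ENSMUSG00000078202, mm10 chr2:25180758-25183339, plus strand, 1 annotated transcript of 2582 bases) had 118 and 93 counts in the untreated libraries, 377 and 338 in the auxin libraries and 203 and 207 in the wild-type libraries. On the CPM scale these were 7.31 ± 1.30 in untreated, 22.7 ± 1.29 in auxin and 14.4 ± 0.10 in wild-type cells (mean ± SD, n = 2). Every auxin library was above every wild-type library, and every wild-type library above every untreated one. The log2 fold change after auxin was 1.66 (SE 0.15), a fitted fold of 3.15 and rank 193 among the 16128 genes ordered from the highest. Leaving out each library in turn kept it between 1.48 and 1.84. Of the 2810 genes with a mean of 100 to 300 counts in this comparison, the range that holds Nrarp, 17 had a log2 fold change above 1. The annotation places an antisense gene, Gm38287, across nearly the whole of Nrarp, and it has no row in the count tables. No source used here says whether counting used strand, so reads from the antisense gene cannot be told apart from those of Nrarp.

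Hes1 and Hey1, transcriptional repressors that are classic direct targets of the pathway, had overlapping untreated and auxin libraries. Hes1 had 24.0 and 28.8 CPM in untreated libraries and 23.1 and 27.2 in auxin libraries. Its log2 fold change was −0.05 (SE 0.12). Hey1 was the least abundant of the 10, with 31 and 44 counts in untreated libraries and 25 and 35 in auxin libraries. Its log2 fold change of −0.42, the lowest of the 10, had an SE of 0.31 and ran from −0.70 to −0.16 as single libraries were left out.

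The receptors differed among themselves after auxin. Notch4 went from 14.3 and 15.2 CPM in untreated to 18.9 and 22.9 in auxin libraries, a log2 fold change of 0.52 (SE 0.12), and no library overlapped. Over 12 other settings it ran from 0.35, with scaling to mitochondrial mRNAs, to 0.65, and it was 0.37 without auxin replicate 2. Notch3 was at 126.8 and 127.2 CPM in untreated and 137.0 and 137.1 in auxin libraries, which gave 0.13 (SE 0.06) on the log2 scale and −0.04 when the libraries were scaled to their mitochondrial mRNAs. Notch1, with 67.2 and 65.4 CPM in untreated and 54.1 and 60.2 in auxin libraries, was lower by a log2 fold change of −0.19 (SE 0.08), without overlap. Notch2 lay at 49.9 and 43.7 CPM in untreated and 45.1 and 47.7 in auxin libraries, a log2 fold change of 0.01 (SE 0.09) with overlapping groups. The 4 receptors are large membrane proteins of the same family, and Notch1 ran from −0.27 to −0.12 on the log2 scale as single libraries were left out.

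The ligands and the DNA-binding protein gave smaller or less repeatable differences. Dll1, a Delta-type ligand, had 108 and 203 counts in the untreated libraries, which differed from each other 1.85-fold in CPM, and 221 and 248 after auxin. Its log2 fold change of 0.49 (SE 0.21) rests on untreated replicate 1, and was 0.11 without it and 1.00 without untreated replicate 2. Jag1, a Jagged-type ligand, had 7.11 and 8.79 CPM in untreated and 8.77 and 9.09 in auxin libraries, which overlapped, with a log2 fold change of 0.19 (SE 0.17). Rbpj, the DNA-binding partner of every NOTCH intracellular domain, went from 334 and 308 CPM to 274 and 269, a log2 fold change of −0.22 (SE 0.07) with no overlap. Over 12 other settings it ran from −0.40 to −0.17.

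**Figure D2:**
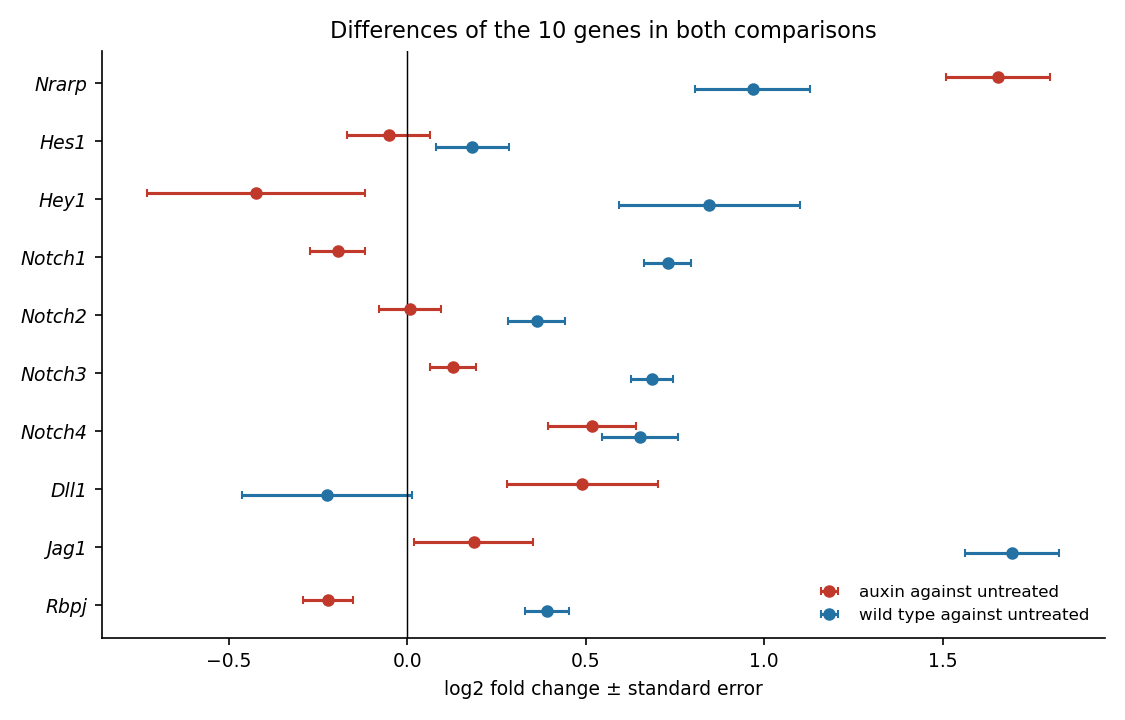
Log2 fold change with its standard error for the 10 genes after auxin (red) and in wild type (blue), each against the same 2 untreated libraries (n = 2 per group). Nrarp stands at 1.66 after auxin and 0.97 in wild type, and Jag1 at 0.19 and 1.69, and with scaling to mitochondrial mRNAs all 10 values in wild type fall below 0, together with the median of all genes at −2.10.

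In wild-type cells, 9 of the 10 genes stood above the untreated degron line, Jag1 and Nrarp most of all, and all 10 lay below it when libraries were scaled to the 13 mitochondrial mRNAs. That scaling moved the median of all genes to −2.10, since mitochondrial mRNAs made up 1.50 to 1.53% of counts in wild type and 0.341 to 0.401% in untreated libraries. Relative to that median all 10 genes had the sign they had with TMM. With TMM, 8 of the 10 were called higher and 0 lower, against 29.9% and 30.7% of the 15778 genes tested, and 9 of the 10 had groups that did not overlap, all higher, against 81.0% of all genes (40.5% higher). This contrast also counts among the values that chose the genes, so nothing is read from these shares. The median log2 fold change was 0.67 over the 10 and −0.01 over all genes.

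Jag1 had 102 and 128 counts in untreated and 375 and 364 in wild-type libraries, or 7.95 ± 1.19 and 25.9 ± 0.71 CPM. The log2 fold change was 1.69 (SE 0.13), a fitted fold of 3.24, and lay between 1.55 and 1.85 when each library was left out in turn. Nrarp was higher by a log2 fold change of 0.97 (SE 0.16), with a range of 0.79 to 1.16 over the same left-out libraries. The auxin and wild-type differences of Nrarp are taken from the same untreated libraries.

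The 4 receptors all stood higher in wild type than in untreated cells with TMM scaling, and all 4 were lower with mitochondrial scaling. Notch1 was at 66.3 ± 1.26 CPM in untreated and 110.4 ± 3.29 in wild-type libraries, a log2 fold change of 0.73 (SE 0.07). Notch3 was at 204.3 and 206.4 CPM in wild type, 0.69 (SE 0.06) above untreated on the log2 scale. Notch4 was at 22.5 and 24.2 CPM, a log2 fold change of 0.65 (SE 0.11). Notch2 was at 60.8 and 60.1 CPM, with the smallest difference of the receptors at 0.36 (SE 0.08). Within each of these genes the 2 wild-type libraries differed from each other by at most 1.08-fold.

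Rbpj was at 418 and 430 CPM in wild type, a log2 fold change of 0.39 (SE 0.06) against untreated. Hey1 had 62 and 72 counts in wild type and a log2 fold change of 0.85 (SE 0.25), which ran from 0.63 to 1.11 as single libraries were left out. Hes1, at 31.3 and 28.9 CPM, lay just above the higher untreated library, with a log2 fold change of 0.18 (SE 0.10). Dll1, at 9.01 and 9.48 CPM, fell between its 2 untreated libraries, and its log2 fold change of −0.22 (SE 0.24) ran from −0.60 to 0.29 as single libraries were left out.

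Compared with each other per length of exon, Rbpj was the most abundant of the 10 in all groups and Hey1 the least. In untreated cells Rbpj had 25.2 ± 1.43 CPM per kb (mean ± SD, n = 2), Notch3 15.7 ± 0.03 and Hes1 13.0 ± 1.69, and no neighbours in this order overlapped. Notch1 at 4.66 ± 0.09 and Notch2 at 4.34 ± 0.41 CPM per kb overlapped each other. Nrarp at 2.83 ± 0.50, Dll1 at 2.54 ± 1.08 and Notch4 at 1.83 ± 0.08 CPM per kb followed, each overlapping the next. Jag1 at 1.36 ± 0.20 and Hey1 at 0.79 ± 0.19 CPM per kb came last, apart from each other.

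After auxin Nrarp stood higher in this order, at 8.79 ± 0.50 CPM per kb, rank 4 of the 10, below Hes1 at 12.4 ± 1.42 and above Notch2 at 4.30 ± 0.17 with no overlap on either side. In wild type Nrarp held rank 6 at 5.56 ± 0.04 CPM per kb, overlapping Notch2 at 5.61 ± 0.05, and Jag1 held rank 7 at 4.44 ± 0.12. Among the receptors Notch3 made up 58.5 to 62.1% of the summed level per kb in every library, and Notch4 6.61 to 7.20% in untreated, 8.58 to 9.98% in auxin and 6.75 to 7.14% in wild-type libraries. When the longest transcript was used in place of the union of exons, 6 of the 10 kept their rank in untreated cells, and Hes1 passed Notch3.

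**Figure D3:**
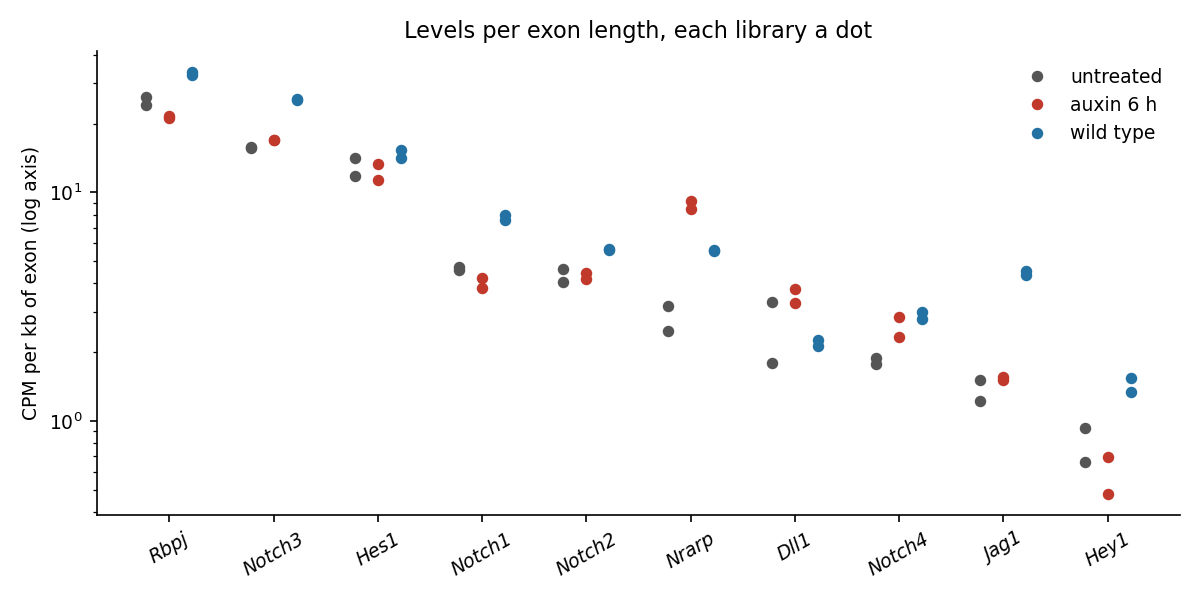
Level per kb of exon (TMM-scaled CPM per kb, log axis) of the 10 genes, ordered by their untreated mean, with each library a dot (n = 2 per group). Nrarp is at a mean of 2.83 in untreated, 8.79 in auxin and 5.56 in wild-type cells, while Notch3 and Rbpj stay the highest in every group.

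The 10 genes lie on 5 chromosomes, and none overlaps another. Nrarp, Notch1 and Jag1 are on chromosome 2, where Nrarp ends 1275 kb before Notch1 begins. Notch3, Notch4 and Dll1 are on chromosome 17, Notch2 and Hey1 on chromosome 3, Hes1 on chromosome 16 and Rbpj on chromosome 5. Besides Nrarp with its antisense gene, Notch1, Notch2, Notch3, Notch4, Dll1 and Rbpj share bases with other annotated genes, and those of them with a row in the tables had at most 18 counts in any library.

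Genes around Nrarp were tested because position, and not their values, chose them. Of 18 genes in the count table with a body within 100 kb, 13 passed the filter, and all of these start downstream of Nrarp. None was called after auxin, against 4.20% of all genes, by edgeR or by DESeq2. At an unadjusted p under 0.05, 3 of the 13 passed, Cysrt1, Rnf224 and Tubb4b, as did 3245 of the 16128 genes tested, a like share. The nearest, Tor4a, a torsin family ATPase whose start lies 16.1 kb away, had a log2 fold change of 0.22 (SE 0.12, edgeR adjusted p = 0.343). Nelfb, a subunit of the NELF complex that holds Pol II in promoter-proximal pausing, was at −0.03 (SE 0.07, edgeR adjusted p = 0.874). Tubb4b, a beta-tubulin gene, was at −0.24 (SE 0.07, edgeR adjusted p = 0.0569), and was called in fits that left out either untreated library and in the fit of all 3 groups. Rnf224 and Cysrt1 had values near that of Nrarp, 1.28 (SE 0.39, edgeR adjusted p = 0.0711) and 1.36 (SE 0.61, edgeR adjusted p = 0.201), from at most 34 and 16 counts per library. Rnf224 was called in the fit of all 3 groups. Of the 253 genes with a mean under 10 counts, the range that holds Cysrt1, 94 lay above 1. Of the 1883 with a mean of 20 to 50, the range that holds Rnf224, 121 did. Cysrt1, with 2 and 8 counts in untreated and 12 and 16 in auxin libraries, passed the filter on low counts through auxin alone. The median over the 13 genes was 0.16.

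**Figure D4:**
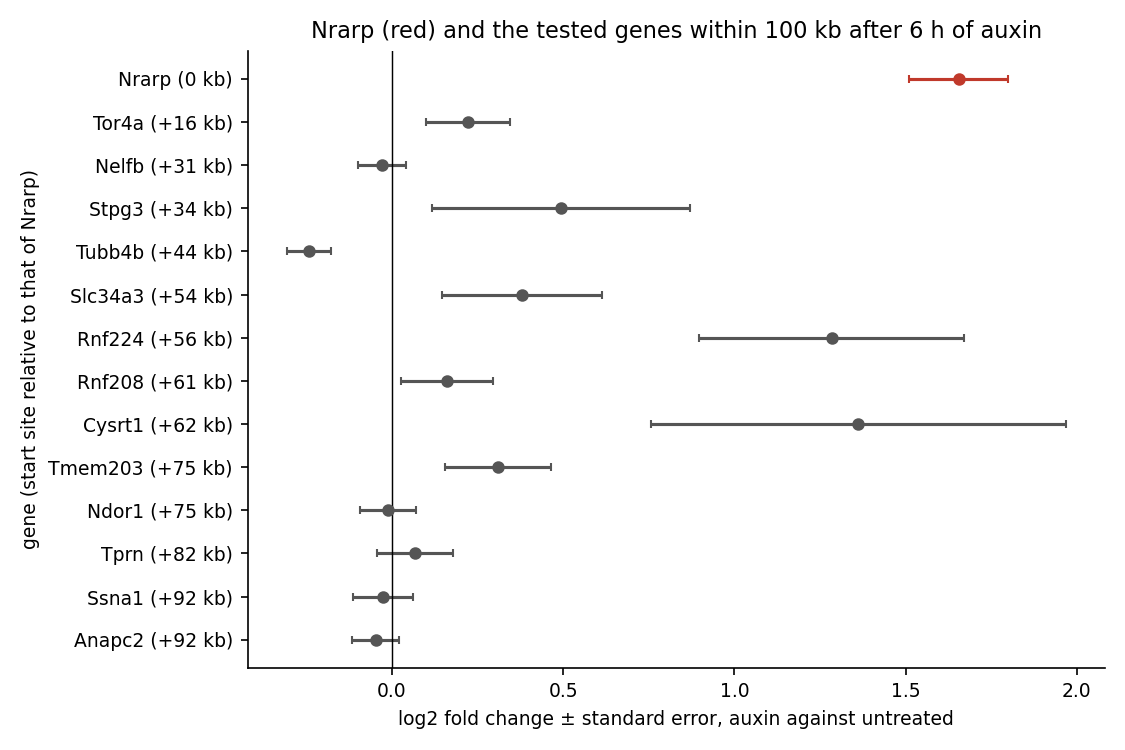
Log2 fold change after auxin with its standard error for Nrarp (red) and the 13 tested genes within 100 kb (grey), from top to bottom by distance of their start site. Apart from Rnf224 and Cysrt1, at 1.28 and 1.36 with wide errors, the neighbours lie between −0.24 and 0.49, below Nrarp at 1.66.

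Of 61 other genes of the pathway, from ligands to corepressors, 57 had enough counts after auxin, 1 was called higher and 1 lower, or 3.51% against 4.20% of all genes. The list was written from general knowledge of the pathway, with earlier results of these data known. The median log2 fold change over the 57 was −0.01, and 28 lay above 0. Hes3, a HES family repressor gene found in neural progenitors, was the gene called higher. It had 2 and 3 counts in untreated, 38 and 30 in auxin and 4 and 1 in wild-type libraries, a ratio of summed counts, scaled for library size, of 12.5 (95% exact conditional binomial interval 5.10 to 39.7, counting error only; edgeR adjusted p = 0.00204). It passed the filter on low counts through its auxin libraries alone, so it had to differ to be tested in this way. Without any filter its edgeR adjusted p was 0.0351, a filter of 10 counts in every library removed it, and it had too few counts to be tested in wild type. Genes at this depth were higher more often than lower, as 258 of the 1510 genes with a mean of 10 to 20 counts lay above 1 and 18 below −1 on the log2 scale, with a median of 0.21.

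Poglut1, an enzyme that adds glucose to the EGF repeats of NOTCH receptors, fell after auxin from 1189 and 1311 to 991 and 1075 counts, a log2 fold change of −0.38 (SE 0.08, edgeR adjusted p = 0.0182). The call was lost while the log2 fold change stayed of like size without auxin replicate 1 (−0.31, edgeR adjusted p = 0.239), without auxin replicate 2 (−0.46, edgeR adjusted p = 0.0587), without a filter (−0.40, edgeR adjusted p = 0.115) and with mitochondrial scaling (−0.54, edgeR adjusted p = 0.175). Dll4, another Delta-type ligand, had 5 and 10 counts in untreated and 32 and 16 in auxin libraries. The ratio was 2.94 (95% exact conditional binomial interval 1.62 to 5.65, counting error only) and did not pass the test (edgeR adjusted p = 0.0910). Dll4 also got through the filter on low counts by way of its auxin libraries. Of the 7 gamma-secretase genes, 14 corepressors and 8 coactivators 0 were called after auxin by edgeR, against 4.20% of all genes, and nothing is read from these counts. Among them Ncstn, the substrate-binding subunit of gamma-secretase, was at 0.12 (SE 0.07, edgeR adjusted p = 0.395) and Ncor1, a corepressor, at 0.02 (SE 0.07, edgeR adjusted p = 0.931). Hes5, Hey2 and Heyl, further target repressors, had at most 8 counts in any untreated or auxin library and were not tested.

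In wild type, 17 of 55 tested pathway genes rose and 17 fell, which at 61.8% is close to the 60.6% of all genes called, and the median log2 fold change was 0.01. With mitochondrial scaling 54 of them were called lower and 0 higher, along with 15235 of all genes. The genes of gamma-secretase, the membrane protease that frees the NOTCH intracellular domain, were lower in wild type with TMM scaling: 6 of 7 fell and 0 rose, against 30.7% of all genes called lower, and all 7 had lower groups without overlap, against 40.5% of all genes. Ncstn went from 85.1 and 77.7 to 52.6 and 49.7 CPM, a log2 fold change of −0.68 (SE 0.07, edgeR adjusted p = 1.34e-05). Psen2, a catalytic presenilin, fell by 0.85 (SE 0.12, edgeR adjusted p = 9.98e-05) and Psenen, the small subunit that activates the complex, fell by 0.56 (SE 0.08, edgeR adjusted p = 0.000104) on the log2 scale. Without a filter 5 gamma-secretase genes were called lower, and fewer were called without wild-type replicate 2. With mitochondrial scaling 7 were called lower, but so were 15235 of the 15778 genes tested. In the other settings with both libraries of each group, 6 were called lower.

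Of the 8 coactivators 2 rose and 2 fell in wild type, 50% of them against 60.6% of all genes called. Maml1 and Maml3, Mastermind proteins that bridge the NOTCH complex to histone acetyltransferases, fell by 0.82 (SE 0.08, edgeR adjusted p = 4.49e-06) and 1.66 (SE 0.25, edgeR adjusted p = 0.000108) on the log2 scale. Kat2a, a histone acetyltransferase, rose by 0.40 (SE 0.07, edgeR adjusted p = 0.000272). Of 14 corepressors 8 rose and 2 fell, 71.4% of them against 60.6% of all genes called (29.9% higher and 30.7% lower). Tle4, a Groucho-type corepressor used by HES proteins, rose by 0.83 (SE 0.07, edgeR adjusted p = 1.64e-06). Ctbp2, another corepressor, rose by 0.40 (SE 0.06, edgeR adjusted p = 0.000135). With mitochondrial scaling, which moved the median of all genes to −2.10, Kat2a, Tle4, Ctbp2, Mib1 and Neurl1b were called lower, and Hes6 was at −0.25 (edgeR adjusted p = 0.179).

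Ubiquitin ligases that make ligands active by driving their endocytosis also went both ways in wild type. Mib1 rose by 0.54 (SE 0.06, edgeR adjusted p = 2.63e-05) and Neurl1b by 1.32 (SE 0.20, edgeR adjusted p = 0.000119), while Neurl1a fell by 0.57 (SE 0.09, edgeR adjusted p = 0.000167). Hes6, a HES family member that antagonises HES1, rose from 13.7 and 14.4 CPM in untreated to 52.2 and 49.3 in wild type, a log2 fold change of 1.84 (SE 0.09, edgeR adjusted p = 2.36e-08). Of 6 glycosylation and processing genes 0 were called in wild type by edgeR, against 60.6% of all genes, with Poglut1 at 0.08 (SE 0.07, edgeR adjusted p = 0.332) and Furin at 0.14 (SE 0.08, edgeR adjusted p = 0.140).

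**Figure D5:**
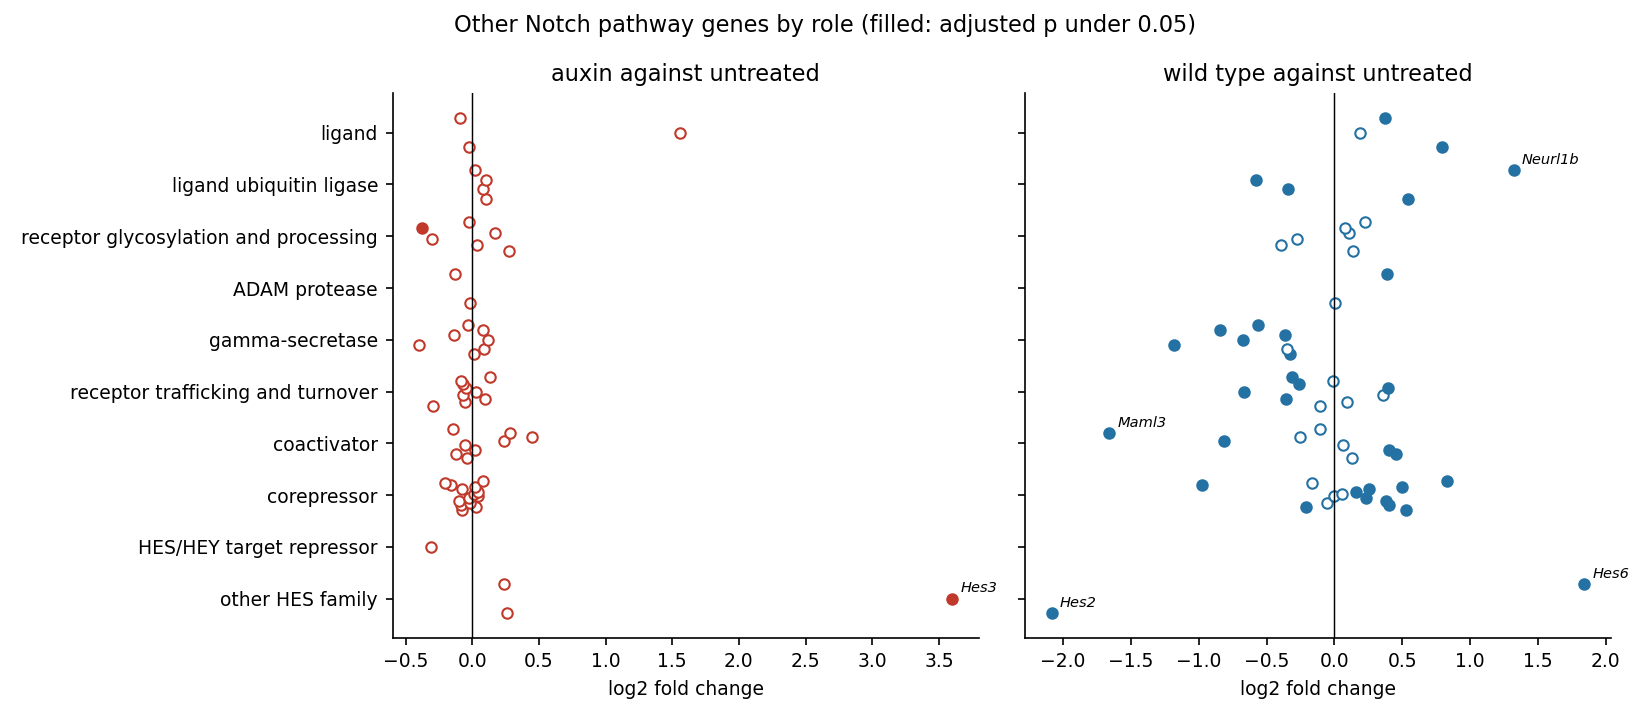
Log2 fold changes of the tested genes among 61 other pathway genes, by role, after auxin (57 genes, left) and in wild type (55 genes, right), each against the 2 untreated libraries, with filled dots for an adjusted p under 0.05. After auxin 2 dots are filled, Hes3 and Poglut1, and in wild type 34 are, with 6 of 7 gamma-secretase genes on the lower side; with mitochondrial scaling 54 of the 55 lay on the lower side and were called.

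The genes whose levels followed Nrarp most closely over the 6 libraries were Slc5a3, Gm26917, Mybpc2, Zbtbd6 and Hexim1. The measure was the root mean square difference of log2(CPM + 0.5), centred on the untreated mean, over the 12415 genes that averaged 50 counts or more. Slc5a3, a sodium and myo-inositol cotransporter, was the closest at 0.18, with 296 and 241 counts in untreated, 884 and 801 in auxin and 621 and 640 in wild-type libraries. Hexim1, an inhibitor of the elongation kinase P-TEFb, was at 0.39, with 517 and 534, 1153 and 1106, and 840 and 883 counts. The list depends on the measure, since Pearson's r gave 5 genes of which 0 were shared. Such likeness over 3 groups of 2 libraries is a description only.

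Library totals ran from 14094022 to 15358714 counts. The study's methods state biological replicates for its high-throughput experiments, while the labels of these libraries do not say whether cultures were separate, and the tests measure the spread between these libraries only. Counts are relative to each library, and a common gain or loss of all mRNAs leaves them as they are. Polr2a, the gene for RPB1, was higher after auxin, at 651 and 687 against 461 and 451 CPM in untreated libraries (log2 fold change 0.57, SE 0.07, edgeR adjusted p = 0.00117), and since the degron acts on protein its mRNA does not check the depletion. All 8 mESC markers, with Dppa5a and Pou5f1 the most abundant in counts, had at least 10 counts in every library. Their summed level was 3908 to 4490 CPM in untreated, 3237 to 3482 in auxin and 6669 to 6724 in wild-type libraries. After auxin 0 of 8 were called higher and 4 lower, against 2.56% of all genes called higher and 1.64% lower. In wild type 5 were called higher and 1 lower, against 29.9% and 30.7% of all genes. There Dppa5a, at 2043 and 2061 CPM against 684 and 861 in untreated libraries, made up much of the difference. The 10 feeder fibroblast markers, of which 8 had at least 10 counts in every library, summed to 1058 to 1276, 1282 to 1359 and 877 to 880 CPM, most of it Sparc. Of the 8 tested, 1 was called higher and 0 lower after auxin, against 4.20% of all genes called. In wild type 2 were called higher and 4 lower, against 60.6% of all genes called. Dcn and Lum, also on the feeder list, had at most 4 counts. The 6 endothelial markers, a lineage rich in Notch signalling, summed to 181 to 191, 174 to 178 and 108 to 109 CPM. Most of it was Pecam1, at 149 and 166 CPM in untreated and 96.6 and 100 CPM in wild-type libraries. Tie1 was at 22.6 and 17.8 CPM in untreated and 3.24 and 2.37 CPM in wild-type libraries. Of the 4 endothelial markers tested, 0 were called after auxin, against 4.20% of all genes called. In wild type 0 were called higher and 3 lower, against 29.9% and 30.7% of all genes. Cdh5 had at most 13 counts, and Emcn was at 0 in every library. The extraction notes of the wild-type libraries name retina, yet the 8 retina markers summed to at most 2.64 CPM in any library, and Crx, Rcvrn and Rpe65 were at 0 in all 6. The part of these shifts in the differences of the 10 genes was not tested, and in bulk libraries fewer cells of a type and less RNA per cell cannot be told apart.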

How the data were processed

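Poly(A) RNA-seq (paired-end, 150 bases) was measured in 6 libraries, 2 each of untreated, auxin and wild-type cells, grouped by their labels. The authors mapped reads to mm10 with hisat2 2.1.0 and counted them per GENCODE gene with salmon and htseq-count. The GENCODE release and strand setting are not given in the sources used here. The deposited values are raw counts per gene. Columns holding the authors' own comparisons (fold changes, p-values) were not used, nor were 2 columns of counts that matched no sample here. The count tables were joined by gene identifier.

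For each comparison on its own, edgeR 4.0.16 (R 4.3.3) was run over all genes (TMM, filterByExpr with a minimum count of 10, quasi-likelihood test, Benjamini-Hochberg adjustment over all genes tested, threshold 0.05), and the script was tested on simulated data. Fold changes carry a prior count of 0.125. The 10 genes and all lists were chosen with earlier results of these data known. Gene positions and lengths came from GENCODE (GRCm38), where 37607 of the 39017 identifiers were found, and upstream sequences from RefSeq (GRCm38.p6). Named genes were the 10, called pathway genes up to 12 per comparison by p, the 2 most abundant of roles without a call, tested genes within 100 kb of Nrarp, the 5 most like Nrarp, and up to 2 markers per list by count; Dll4, Hes5, Hey2, Heyl, Furin, Ncor1 and markers at or near 0 were named after their values were seen. Alternatives were DESeq2 1.42.0, other scalings and filters, all groups in one fit, a replicate block, and leaving out each library.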

Additional observations from a re-analysis of the deposited data

How the results depend on the processing

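The log2 fold change of Nrarp after auxin was 1.48 to 1.84 over the 12 alternatives, all on the libraries it was chosen from. The number of genes called after auxin was unstable: 677 as reported, 236 with DESeq2, 432 with 10 counts in every library, 55 without a filter, 1235 with all 3 groups in one fit, 219 with mitochondrial scaling, and 179 to 2726 when each library was left out in turn, the lowest without auxin replicate 2 and the highest without untreated replicate 1. Of these, 413 were higher and 264 lower as reported, and 167 and 52 (76.3% higher) with mitochondrial scaling. The 2 other pathway genes called after auxin became 1 with mitochondrial scaling, 1 without a filter, 1 with 10 counts in every library and 1 to 8 with a library left out. Among the 10, Notch4 was not called after auxin with DESeq2, without a filter or with mitochondrial scaling, and was at 0.37 without auxin replicate 2. Rbpj was called lower in the fit of all groups. As single libraries were left out, Dll1 ran from 0.11 to 1.00 and Rbpj from −0.28 to −0.17 on the log2 scale. In wild type Hey1 was not called with DESeq2. Leaving out single libraries there gave 0.63 to 1.11 for Hey1, 0.05 to 0.32 for Hes1 and −0.60 to 0.29 for Dll1. These libraries chose the 10 genes, so nothing is read from their calls. Genes near Nrarp went from 0 to 2 calls in the fit of all groups and 0 to 1 with a library left out; these alternatives for the neighbours were chosen after seeing the data. The median of the 10 genes after auxin went from 0.07 to −0.11 with mitochondrial scaling, as that of all genes went to −0.17.

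The labels do not say whether same-numbered libraries belong together. Their deviations correlated at 0.07 (auxin) and −0.03 (wild type) across genes, with 2 pairs each, which is too few to settle it. With the replicate block, 1930 genes, 7 other pathway genes, 2 genes near Nrarp (Rnf224 and Tubb4b) and 4 of the 10 genes (Nrarp, Notch4, Dll1 and, lower, Rbpj) were called after auxin, and 9689 genes in wild type. Nothing is read from the calls of the 10 here either.

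In wild type, mitochondrial scaling moved the calls from 9555 to 15308, those of the other pathway genes from 34 to 54 and the median of the 10 genes from 0.67 to −1.42. Under it the log2 fold change turned to −1.14 for Nrarp, −1.23 for Hey1, −1.37 for Notch1, −1.74 for Notch2, −1.41 for Notch3, −1.44 for Notch4, −0.39 for Jag1, −1.71 for Rbpj, −0.25 for Hes6, −1.27 for Tle4, −1.56 for Mib1, −0.76 for Neurl1b, −1.70 for Ctbp2 and −1.69 for Kat2a, as the median of all genes moved to −2.10. Ranks per kb held for 6 of 10 genes with the longest transcript, and 0 of the 5 genes most like Nrarp were shared by Pearson's r. The causes of these changes were not tested. Counts of at most 72 limit the precision for Hey1, and the 1.85-fold gap between its untreated libraries that for Dll1.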
